A study of Mus musculus with 2 samples.

Results

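Monocytes and other myeloid cells that lack the transcripts of Kupffer cells, the resident macrophages of the liver, were examined among sorted mouse liver cells from control and cirrhotic livers. They were chosen by transcript counts. A cell barcode was taken when Cx3cr1, Ms4a6c, Ccr2, Csf1r and Itgax together had at least 6 unique molecular identifiers (UMIs, each standing for 1 captured transcript). Clec4f, Vsig4 and Cd5l of Kupffer cells had to stay under 0.05% of its UMIs, and Stab1, Stab2, Clec4g and Dnase1l3 of liver sinusoidal endothelial cells (LSECs) under 0.3%. Siglech of plasmacytoid dendritic cells and Cd79a of B cells had to be at 0, and Gpnmb at 1 UMI or fewer. The rule took 278 of the 12830 barcodes with at least 500 UMIs, 300 genes and under 20% mitochondrial transcripts. The control library gave 47 of 5168 barcodes, or 0.909% (95% Clopper-Pearson interval 0.669 to 1.21), and the cirrhosis library 231 of 7662, or 3.015% (2.64 to 3.42).

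Monocytes leave the bone marrow through Ccr2, the receptor of the chemokine Ccl2, and enter injured tissue, where they can become macrophages. The growth factor receptor Csf1r keeps monocytes and macrophages alive, Cx3cr1 is the receptor of the membrane-bound chemokine fractalkine, and Itgax is the integrin CD11c of dendritic cells and some macrophages. In the liver, Kupffer cells are seeded before birth, whereas monocyte-derived macrophages gather in scars after chronic injury, and conventional dendritic cells present antigen through MHC class II.

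Both groups were C57BL/6 mice of 16 weeks with the genotype Cdh5-Cre+, mTmG +/+. In these animals Cre, driven by the promoter of the endothelial cadherin Cdh5, switches a red membrane reporter (tdTomato) to a green one (eGFP). Cirrhosis was induced with inhaled carbon tetrachloride, a hepatotoxin, over 12 weeks, and the controls carry the label Control. Non-parenchymal cells of 3 mice per group were pooled, live GFP-positive cells were sorted, and 1 library per group was made with the 10x Genomics 3′ v3 kit, which captures transcript ends. Each group is thus 1 library, which leaves no replicates, and no test was made. All intervals cover counting error only, and differences between mice, sorts and libraries cannot be told apart from cirrhosis.

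The control library held 45767322 UMIs over 5642 barcodes and the cirrhosis library 77339928 UMIs over 8327. The chosen cells had a median of 11219 UMIs and 3233 genes in control and of 13340 UMIs and 3508 genes in cirrhosis. The libraries shared 17 barcode sequences, and none belonged to a chosen cell. A doublet score (Scrublet) marked 1 chosen control cell and 16 chosen cirrhosis cells.

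The threshold of 6 UMIs cut through a continuous range. At 5 UMIs, just outside it, lay 8 control and 19 cirrhosis barcodes, and at 6 UMIs, just inside, lay 3 and 10. The chosen control cells had a median of 15 UMIs of these genes, with a range of 6 to 67, and the cirrhosis cells a median of 31, with a range of 6 to 153. The limit on Kupffer cell transcripts was exceeded by 187 of the 295 control and 219 of the 667 cirrhosis barcodes with 6 or more UMIs. The Gpnmb limit was exceeded by 1 control and 158 cirrhosis barcodes, so the barcodes it removed came almost all from the cirrhosis library.

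The label was met in part. Clustering of the 278 cells gave 8 clusters, and their leading genes describe them without any test, since the same genes made the clusters. Macrophage-like cells numbered 9 in control and 76 in cirrhosis, classical monocyte-like cells 9 and 20, and cells like type 2 conventional dendritic cells (cDC2-like) 7 and 25. A cluster led by cell cycle genes, with markers of type 1 conventional dendritic cells (cDC1), held 11 and 15 and was left without a cell type name. A T cell-like cluster led by Trdc, the constant region of the delta T cell receptor chain, held 4 and 26, and a natural killer (NK) cell-like cluster held 5 and 17. The last 2 clusters carried myeloid transcripts together with those of vascular endothelium (1 and 31 cells) or of bile duct epithelium and hepatocytes (1 and 21 cells), and they held 16 of the 17 marked doublets.

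**Figure D1:**
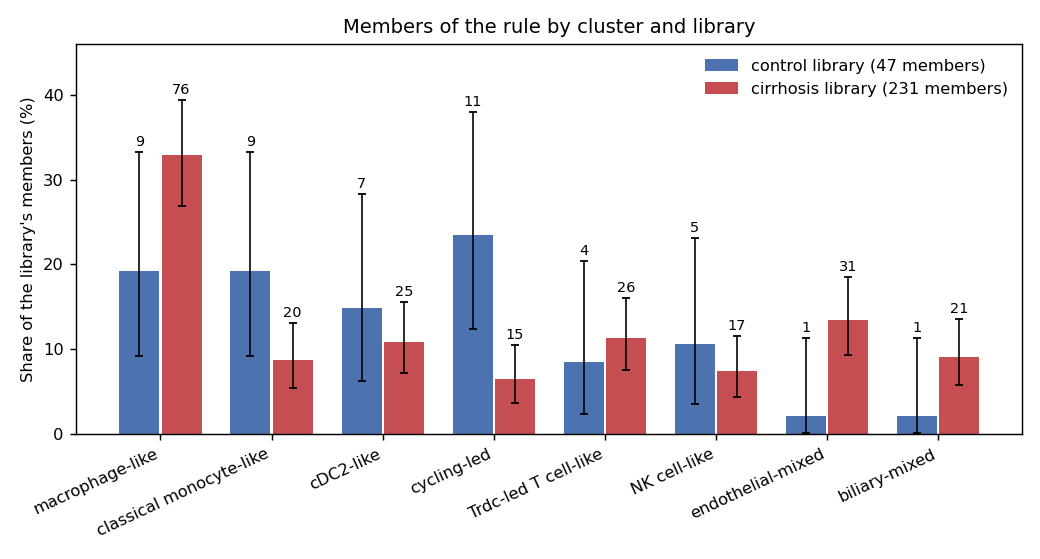
Share of the chosen cells of each library (percent, vertical axis) in each of the 8 clusters, with exact 95% intervals for counting error; colours stand for the control and cirrhosis libraries. The macrophage-like cluster held 32.9% of the cirrhosis cells, and the cycling-led cluster 23.4% of the control cells.

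The clusters numbered 0, 2, 4 and 5 (macrophage-like, cDC2-like, classical monocyte-like and cycling-led) are treated below as a set of 4 clusters and not as a cell class. None of the 10 leading genes of the cycling-led cluster, of which Ifi205 at 195 CPM was the first, was on the myeloid marker lists used here. The 4 clusters held 36 of the 47 control cells, or 76.6% (62.0 to 87.7), and 136 of the 231 cirrhosis cells, or 58.9% (52.2 to 65.3). In the mixed clusters lay 4.26% of the chosen control and 22.5% of the chosen cirrhosis cells. The lymphocyte clusters held 19.15% and 18.6%, but the lymphocyte-like cells lay just above the threshold, and at 4 UMIs of the selecting genes their shares were 42.5% and 24.9%. Of all barcodes within the depth limits, the 4 clusters made up 0.697% (0.488 to 0.963) in control and 1.77% (1.49 to 2.10) in cirrhosis. Differences in genes that define the clusters also set these shares, so they are given as a description.

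Different selecting genes brought in different clusters. In the T cell-like cluster Ccr2 gave 253 of the 258 UMIs of the selecting genes, or 98.1%, and in the NK cell-like cluster 171 of 219, or 78.1%. Both clusters had 0 UMIs of Cx3cr1. In the macrophage-like cluster Ccr2 gave 27.4% of these UMIs, Csf1r 27.9% and Cx3cr1 20.6%. The median per cell was 49 UMIs in macrophage-like, 46 in classical monocyte-like and 32 in cDC2-like cells, against 7 in each lymphocyte cluster, just above the threshold. Levels are given in CPM, the UMIs of a gene scaled to a fixed total over the summed cells. Ccr2 reached 1712 CPM in classical monocyte-like, 1284 in T cell-like and 1065 in macrophage-like cells. Cx3cr1 was highest in macrophage-like cells at 802 CPM, with 410 in classical monocyte-like, 185 in endothelial-mixed and 166 in cDC2-like cells.

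**Figure D2:**
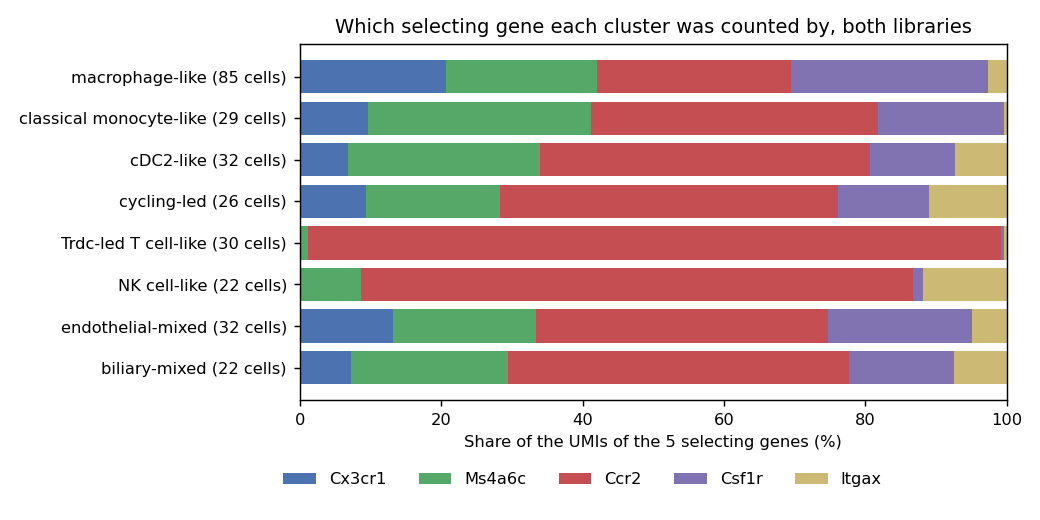
Share of the UMIs of the selecting genes (percent) that came from each of Cx3cr1, Ms4a6c, Ccr2, Csf1r and Itgax, by cluster over both libraries. Ccr2 gave 98.1% in the T cell-like and 78.1% in the NK cell-like cluster.

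The selecting genes lie on separate chromosomes of the mouse genome build GRCm38 (GENCODE M21), apart from Ccr2 and Cx3cr1, which share chromosome 9. Ccr2 spans chr9:124101950-124113557 on the plus strand and Cx3cr1 chr9:119901616-120069879 on the minus strand. Itgax spans chr7:128129547-128150657, Ms4a6c, a membrane protein of monocytes, spans chr19:11469366-11482192, and Csf1r spans chr18:61100598-61132149, all on the plus strand.

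The macrophage-like cluster was led by Cd207, Mmp12, C1qa, C3ar1, Adgre1, Hpgds, C1qc, Ms4a7, C1qb and Trem2. Adgre1, the F4/80 antigen, stood at 521 CPM there and at 107 CPM in classical monocyte-like cells. Mmp12, a macrophage elastase, stood at 254 CPM, and Cd207, the lectin langerin, at 228 CPM. The summed macrophage list reached 48501 CPM, against 13179 in classical monocyte-like and 1637 in cDC2-like cells. Kupffer cell markers summed to 216 CPM with Timd4 and Marco at 0 UMIs, although this list overlaps the genes the rule limits.

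C1qa, C1qb and C1qc encode the chains of C1q, the first component of the classical complement pathway. They lie side by side on the minus strand of chromosome 4, at chr4:136895917-136898803, chr4:136880129-136886187 and chr4:136889804-136893065. The RefSeq promoter windows (build GRCm38.p6, 250 bases before to 50 after the transcript start) of C1qb, at chr4:136886151-136886450, and of C1qc, at chr4:136892865-136893164, are printed because these neighbours were counted together in the same cells. Capitals mark GAGGAA, the core letters bound by the myeloid factor PU.1 (Spi1), or TTCCTC, the same letters on the other strand.
C1qb: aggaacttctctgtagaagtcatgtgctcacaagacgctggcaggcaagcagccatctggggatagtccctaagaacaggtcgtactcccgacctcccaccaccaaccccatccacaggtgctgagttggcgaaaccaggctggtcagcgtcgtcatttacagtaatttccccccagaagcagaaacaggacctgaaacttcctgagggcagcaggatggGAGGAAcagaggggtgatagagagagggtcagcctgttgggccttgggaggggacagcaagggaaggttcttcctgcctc
C1qc: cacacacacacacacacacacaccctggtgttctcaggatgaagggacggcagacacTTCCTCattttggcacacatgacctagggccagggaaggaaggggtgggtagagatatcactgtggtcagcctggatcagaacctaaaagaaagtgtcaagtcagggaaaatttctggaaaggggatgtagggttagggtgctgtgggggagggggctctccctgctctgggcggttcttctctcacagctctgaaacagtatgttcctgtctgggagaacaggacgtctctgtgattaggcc
Each window held 1 match, beginning at -30 in C1qb and, on the other strand, at -193 in C1qc, where the first transcribed base is 0. Of 27025 promoter windows of this length, 7652 (28.3%) held a match on either strand, so a match is common. Spi1 itself stood at 419 CPM in macrophage-like, 643 in classical monocyte-like and 474 in cDC2-like cells, and at 0 in T cell-like cells.

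The classical monocyte-like cluster was led by Chil3, Mmp8, Fn1, Ly6c2 and F13a1. Chil3, a chitinase-like protein of monocytes, stood at 3702 CPM against 48.6 in macrophage-like cells. Ly6c2, the surface antigen that defines classical monocytes, stood at 662 CPM against 10.1. F13a1, coagulation factor XIII, stood at 602 CPM against 117, and Plac8 reached 2378 CPM. Non-classical monocyte markers formed no cluster of their own: Ace, with 48 UMIs, stood at 151 CPM among classical monocyte-like cells, while Treml4 stood at 53.6 CPM among macrophage-like cells. Lyz2, lysozyme, reached 27635 CPM in classical monocyte-like and 10792 in macrophage-like cells.

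The cDC2-like cluster carried Cd209a at 810 CPM, Clec10a at 312 CPM and Flt3, the growth factor receptor of dendritic cells, at 171 CPM. Ccr7, which guides dendritic cells to lymph nodes, had 15 UMIs there and 0 in each of the other clusters. Cd74, the MHC class II invariant chain, was highest in this cluster at 26343 CPM, with 19455 in macrophage-like and 9959 in classical monocyte-like cells. Prtn3, a granule protease of granulocyte and monocyte precursors, was among the leading genes, with 63 of its 64 control UMIs in 1 cell of 21798 UMIs. That cell also held 42 of Elane, 27 of Mpo and 85 of the 118 control UMIs of Ly6c2.

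The cycling-led cluster had Mki67 at 324 CPM and Top2a at 426 CPM, both marks of dividing cells. It also had the cDC1 markers Xcr1 at 266 CPM, Clec9a at 150 CPM, Naaa at 537 CPM and Irf8, the factor cDC1 depend on, at 1531 CPM. Its cells were not alike. The cDC1 list summed to 3624 CPM in its control and 2971 in its cirrhosis cells, and the macrophage list to 1453 and 11679. A control cell of 21865 UMIs held all 388 control UMIs of Gzma, a granzyme of cytotoxic lymphocytes, with 275 of Ccl5, 30 of Nkg7 and 26 of Mki67, and it had 0 of Clec9a.

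The T cell-like cluster had Trdc at 1467 CPM, Cd3g at 1467 CPM and the cytokine Il17a at 299.5 CPM. The NK cell-like cluster had the receptor Ncr1 at 606 CPM, and Cd3g at 434 CPM. All 113 UMIs of Ncr1 there came from cirrhosis cells. In the 5 control cells of the cluster 6 of the 8 genes of the T and NK cell list were detected, with Gzma and Ncr1 at 0. The NK cell name thus rests mostly on the cirrhosis cells. Over both libraries this list summed to 3528 CPM in T cell-like and 4932 in NK cell-like cells, against 54.6 in macrophage-like and 3.15 in classical monocyte-like cells. In the endothelial-mixed cluster the LSEC list, which overlaps the genes the rule limits, summed to 4982 CPM. Vwf, von Willebrand factor of large vessels, stood at 549 CPM there. In the biliary-mixed cluster the hepatocyte list summed to 15154 CPM and the cholangiocyte list to 5215 CPM, with Epcam at 315 CPM. Cells of the mixed clusters were also the deepest, at a median of 22336 UMIs in the endothelial-mixed and 25198 in the biliary-mixed cluster.

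**Figure D3:**
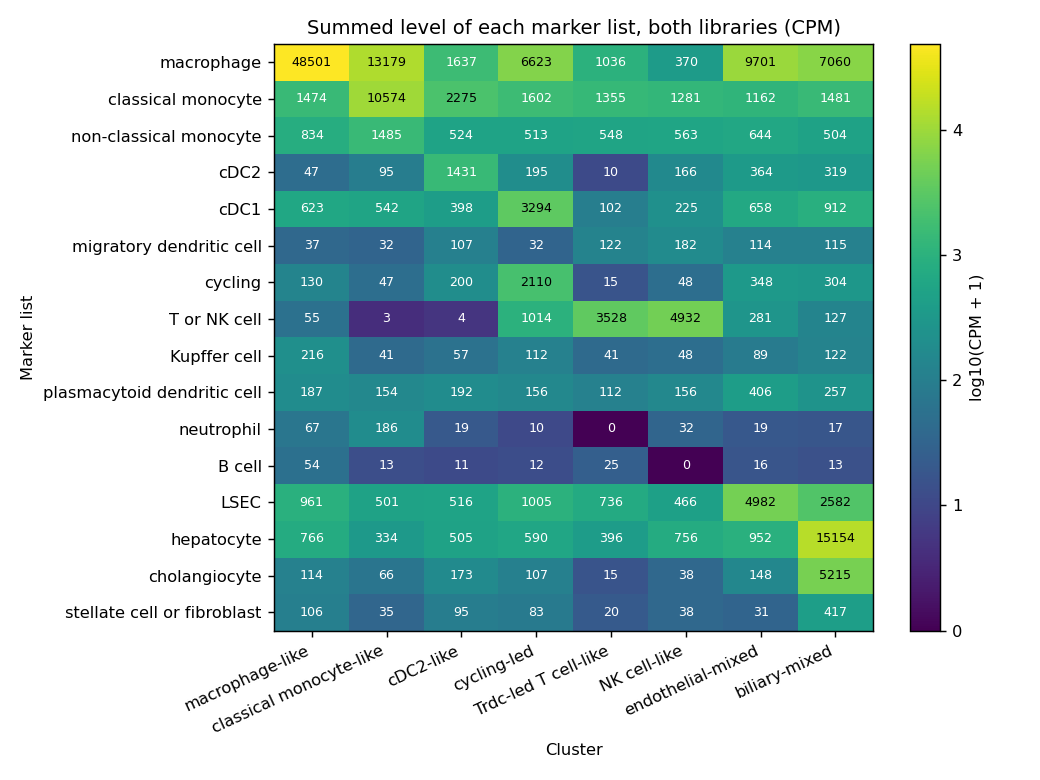
Summed level of each marker list (rows) in each cluster (columns) over both libraries, printed in CPM and coloured by log10(CPM + 1). The macrophage list reached 48501 CPM in the macrophage-like cluster, and the hepatocyte list 15154 CPM in the biliary-mixed cluster.

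Cirrhosis and control were then compared over the summed UMIs of the chosen cells, as the log2 ratio of CPM in cirrhosis over control. A gene counts as higher or lower past 2-fold at a mean of at least 50 CPM. All genes of the rule were left out, both the selecting genes and those it limits. Of 3123 genes, 150 were higher in cirrhosis (4.8%) and 60 lower (1.92%), and the median log2 ratio was -0.03. Within the 4 clusters, 107 of 2891 genes were higher (3.7%) and 120 lower (4.15%), with a median of -0.09. Of the genes tested in both, 58 were higher and 50 lower in both comparisons. Macrophage-like cells made up 32.9% of the chosen cells in cirrhosis and 19.15% in control, so these sums also follow the makeup of the libraries. With the 4 clusters weighted equally, 35 genes were higher and 111 lower.

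Several of the highest genes belonged to other cell types. Igfbp5, a binding protein of insulin-like growth factors, had 0 UMIs in control and 741 in cirrhosis, with 99.1% of them in the mixed clusters, and its log2 ratio was at least 5.48 against a floor of 3 counts over the control cells. Ednrb, an endothelin receptor, had 4 and 1078 UMIs, a log2 ratio of 5.61, with 91.3% of the cirrhosis UMIs in the mixed clusters. The plasma proteins Ahsg, Apoa1, Ttr and Rbp4 had log2 ratios of 2.65, 2.63, 2.19 and 1.98, with 86.6 to 89.0% of their cirrhosis UMIs in those clusters. Pecam1, an endothelial adhesion molecule, had a ratio of 1.26 over all chosen cells and of -1.18 within the 4 clusters. Over all chosen cells the hepatocyte list summed to 935 CPM in control and 3158 in cirrhosis, and its part in the other ratios was not tested.

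Of 13 measured genes known from scar-associated macrophages, 5 were 2-fold higher and 0 lower over all chosen cells (4.8% and 1.92% of all genes), with a median log2 ratio of 0.97, and 6 and 0 within the 4 clusters (3.7% and 4.15% of all genes), with a median of 0.82. The median was 0.61 with the 4 clusters weighted equally and 0.40 over the macrophage-like, classical monocyte-like and cDC2-like clusters alone. Gpnmb is itself on this list but was left out of the ratios, because the rule limits it. That limit was exceeded by 1 control and 158 cirrhosis barcodes, so the selection also bears on these ratios. Trem2, a lipid-sensing receptor at chr17:48346401-48354147 (plus strand), had 25 UMIs in control and 843 in cirrhosis, or 40.0 and 245 CPM. Its log2 ratio was 2.61 (2.04 to 3.25) over all chosen cells and 2.92 within the 4 clusters. Ctsd, the lysosomal protease cathepsin D at chr7:142375911-142388038 (minus strand), had 116 and 3290 UMIs, or 186 and 955 CPM, a log2 ratio of 2.36 (2.09 to 2.64). The ratios of Trem2 and Ctsd were above 0 in each of the 18 settings computed, from 1.75 to 3.56 for Trem2 and from 1.84 to 3.82 for Ctsd. Cd63, a lysosomal tetraspanin, had 1.65 and Fabp5, a fatty acid binding protein, 1.49. With the 4 clusters weighted equally Cd63 fell under 2-fold, at 0.61.

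Within the macrophage-like cluster, Ctsd stood at 263 CPM (158 to 410) in 9 control cells and at 2120 (2027 to 2217) in 76 cirrhosis cells. Trem2 stood at 180 CPM (95.7 to 307) and 651 (600 to 705). These counting intervals did not overlap, but 9 cells of 1 library carry the control values. Not every gene of the list went this way: Mmp12 stood at 1023 CPM (74 UMIs) in control and 193 (177 UMIs) in cirrhosis. The C1q chains differed less there: C1qa stood at 4160 CPM (3703 to 4657) in control and 3972 (3844 to 4103) in cirrhosis, with overlapping intervals, and C1qc at 2902 and 2966. C1qb stood at 4340 (3873 to 4847) and 5208 (5061 to 5358). In Kupffer cells, which had no limit on Gpnmb, Mmp12 went the other way, at 7.49 CPM in control and 549 in cirrhosis.

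Over all chosen cells the C1q genes were higher in cirrhosis, which the larger share of macrophage-like cells accompanied. C1qb had 394 UMIs in control and 6576 in cirrhosis, or 631 and 1909 CPM, and a log2 ratio of 1.60 (1.45 to 1.75). With the 4 clusters weighted equally it was 0.82. Of 6 complement genes measured, 5 were 2-fold higher and 0 lower (4.8% and 1.92% of all genes), with a median of 1.34, and the median was 0.55 with the clusters weighted equally. C3 had 1.45, with -0.25 within the 4 clusters.

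Lysosomal genes had a median log2 ratio of 0.67 over 17 measured, with 4 past 2-fold higher and 0 lower (4.8% and 1.92% of all genes), and 0.99 within the 4 clusters, with 7 and 0 (3.7% and 4.15%). Lgmn, the protease legumain, had 1.36. Of 11 genes of lipid handling, 5 were higher and 1 lower (4.8% and 1.92% of all genes), with a median of 0.78. Apoe, the lipoprotein component secreted by macrophages, had 2454 and 47042 UMIs, or 3930 and 13654 CPM, a ratio of 1.80, and Pltp, the phospholipid transfer protein, had 2.56. Of 7 Fc receptor genes, 2 were higher and 0 lower (4.8% and 1.92% of all genes), with a median of 0.74 and with Fcgr1, the high-affinity IgG receptor, at 1.92. Ftl1, the ferritin light chain that stores iron, had 1.09 and the metal transporter Slc11a1 had 1.62. With the 4 clusters weighted equally the medians were 0.48 for lysosomal, 0.20 for lipid handling and 0.11 for Fc receptor genes. Lgmn at 0.48, Slc11a1 at 0.62 and Ftl1 at 0.72 were then under 2-fold, while Apoe at 1.002, Fcgr1 at 1.51 and Pltp at 1.775 were past it. Apoe within macrophage-like cells stood at 21477 CPM in control and 35454 in cirrhosis.

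Of 5 chemokine receptors measured, 2 were higher and 0 lower over all chosen cells (4.8% and 1.92% of all genes), with a median of 0.95, which was 0.29 with the 4 clusters weighted equally. Ccr1 had 20 and 418 UMIs and a ratio of 1.92. Of 8 chemokines, 0 were higher and 3 lower (4.8% and 1.92% of all genes), with a median of -0.51. That median was 0.34 within the 4 clusters, 0.01 with these weighted equally and -1.18 over the macrophage-like, classical monocyte-like and cDC2-like clusters alone. Ccl3, a ligand of Ccr1, had 400 and 493 UMIs, or 641 and 143 CPM, a ratio of -2.16. Ccl4, a chemokine of the same family, had 426 and 569 UMIs, or 682 and 165 CPM, a ratio of -2.05. Both ratios were below 0 in all 18 settings. In macrophage-like cells Ccl3 stood at 3731 CPM (3300 to 4204) in control and 240 (210 to 274) in cirrhosis, with 97 of the 400 control UMIs in 1 cell. The same cell held 160 of the 426 control UMIs of Ccl4. In cirrhosis 1 cycling-led cell held 145 of the 493 UMIs of Ccl3 and 178 of the 569 of Ccl4. Ccl5 had -1.44, but 275 of its 440 control UMIs came from the cell with Gzma, and its ratio was 2.19 over the macrophage-like, classical monocyte-like and cDC2-like clusters alone.

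Of 10 interferon-stimulated genes measured, 4 were higher and 0 lower over all chosen cells (4.8% and 1.92% of all genes), with a median of 0.91. Within the 4 clusters 5 of 9 were higher (3.7% of all genes), with a median of 1.08, and the median was 0.77 with these weighted equally. Rtp4, a chaperone of receptors, had 11 and 321 UMIs, or 17.6 and 93.2 CPM, a ratio of 2.40. Oasl2, of the oligoadenylate synthetase family, had 13 and 297 UMIs and a ratio of 2.05. The control counts are small, and for Isg15, a ubiquitin-like modifier with a ratio of 1.65, 1 cell held 72.2% of the control UMIs.

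AP-1 and other immediate-early genes respond quickly to growth and stress signals. Of 17 measured, 0 were 2-fold higher and 5 lower over all chosen cells (4.8% and 1.92% of all genes), with a median of -0.85. Within the 4 clusters 0 were higher and 9 lower (3.7% and 4.15% of all genes), with a median of -1.09. Fos, a subunit of AP-1, had 1172 UMIs in control and 2847 in cirrhosis, or 1877 and 826 CPM, a log2 ratio of -1.18 (-1.28 to -1.08). Fos was higher in control in each of the 4 clusters: 4008 and 1078 CPM in macrophage-like, 1685 and 1117 in classical monocyte-like, 1902 and 670.1 in cDC2-like and 1645 and 835 in cycling-led cells. The same direction held outside the chosen cells, with Fos at 2211 CPM in control and 235 in cirrhosis LSECs, at 2060 and 324 in Kupffer cells and at 749 and 314 in T cells, so the difference ran across the libraries. Atf3 and Nr4a1, stress-induced and orphan receptor transcription factors, had -1.21 and -1.18.

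**Figure D4:**
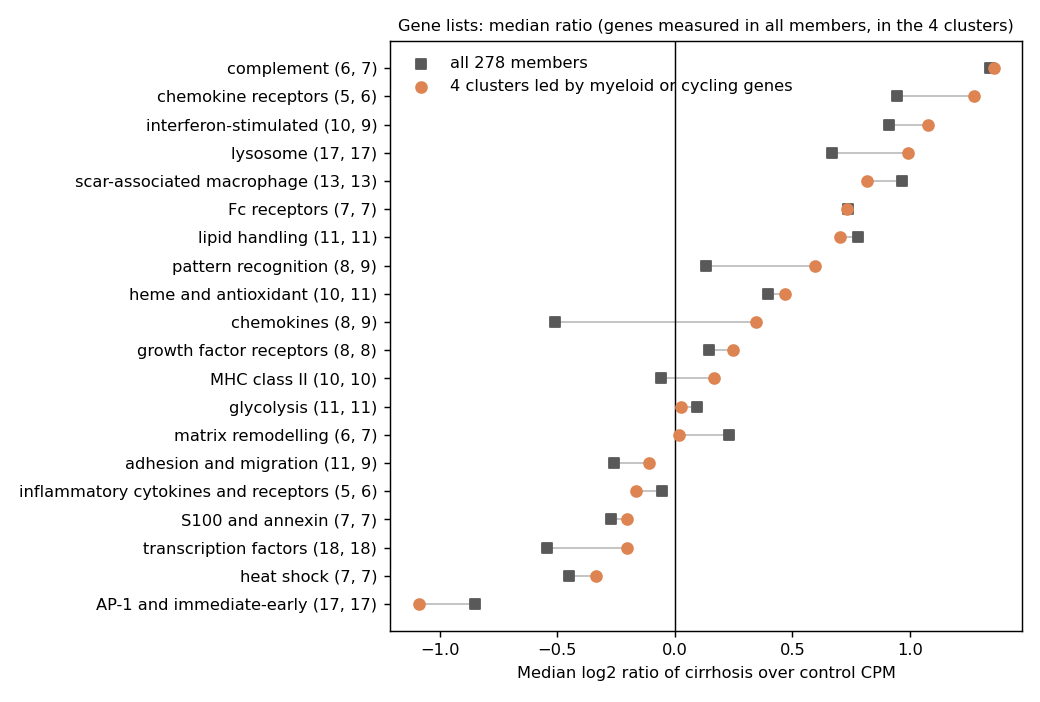
Median log2 ratio of cirrhosis over control (horizontal axis) of each of 20 gene lists, over all chosen cells (squares) and over the 4 clusters (circles). Complement has the highest median over all chosen cells at 1.34, and AP-1 and immediate-early genes the lowest at -0.85.

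Of 18 transcription factors measured, 0 were higher and 4 lower (4.8% and 1.92% of all genes), with a median of -0.54. The median was -0.21 within the 4 clusters and -0.17 with these weighted equally. Irf8 had -1.20, Batf3, which cDC1 require, had -1.33, and Id2 had -1.08. All 3 were above 0 over the macrophage-like, classical monocyte-like and cDC2-like clusters alone, at 0.29, 0.07 and 0.14. The cycling-led cluster held 23.4% of the chosen control and 6.49% of the chosen cirrhosis cells. It had cDC1 markers in both libraries, but its cirrhosis cells also had the macrophage list at 11679 CPM, so these are not shares of cDC1. Chil3 had 452 and 776 UMIs, or 724 and 225 CPM, a ratio of -1.68, from 6 control and 22 cirrhosis cells. It was -0.72, under 2-fold, with the 4 clusters weighted equally, and classical monocyte-like cells were 19.15% of the chosen control and 8.66% of the chosen cirrhosis cells. F13a1, also a marker of classical monocytes, had -1.18, with 0.11 when cells with any UMI of Clec4f, Vsig4 or Cd5l were left out. Of 10 MHC class II genes, 0 were higher and 0 lower past 2-fold (4.8% and 1.92% of all genes), which is near those shares for so few genes. Their median was -0.06 over all chosen cells and 0.17 within the 4 clusters.

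Endothelial transcripts were higher in control over the 4 clusters, to unequal degrees. The LSEC list summed to 1487 CPM (1381 to 1598) in control and 630 (594 to 668) in cirrhosis. In macrophage-like cells it summed to 2750 (2381 to 3160) and 820 (762 to 881). In cycling-led cells it summed to 1692 and 332, with 424 control UMIs. The difference was smaller in cDC2-like cells, at 666 and 483, and in classical monocyte-like cells, at 627 and 455, with overlapping intervals in both. This list includes Stab1, Stab2, Clec4g and Dnase1l3, which the rule limits, so the selection also bears on these sums. The LSEC genes Ehd3 and Kdr, which the rule does not limit, were among the lowest ratios in the 4 clusters, at -2.04 and -1.86. For each, 1 control cell held a large part of the control UMIs, 38.8% for Ehd3 and 34.6% for Kdr. Klf2, a flow-responsive factor of endothelium that leukocytes also express, had -1.66. The T and NK cell list summed to 1010 CPM in control and 40.7 in cirrhosis, and 388 of its 498 control UMIs were the Gzma of 1 cell. Their part in the other ratios was not tested.

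The macrophage-like cells were set beside 200 control and 308 cirrhosis Kupffer cells, chosen by Clec4f, Vsig4 and Cd5l. Timd4, a receptor for dying cells, and Marco, a scavenger receptor, had 0 UMIs in macrophage-like cells of both libraries. In Kupffer cells Timd4 stood at 400 CPM in control and 20.2 in cirrhosis, and Marco at 103.5 and 198. The macrophage-like cells held far fewer UMIs in total, so only bounds can be given against the floor of 3 counts. Timd4 was at least 9.66-fold and 6.16-fold lower than in Kupffer cells, and Marco at least 2.50-fold and 60.6-fold. Slc40a1, the iron exporter, had log2 ratios over Kupffer cells of -4.67 in control, on 6 UMIs (-6.12 to -3.55), and -4.24 in cirrhosis. Folr2, a folate receptor, had -6.00 in control, on 1 UMI (-11.3 to -3.52), and -2.84 (-3.20 to -2.51) in cirrhosis. C1qb differed little, at -0.18 and -0.07. H2-Aa and Cd74 of MHC class II were higher in macrophage-like cells, at 1.70 and 2.31 for H2-Aa and 1.63 and 2.29 for Cd74. Gpr183, an oxysterol receptor that guides migration, had 5.44 and 4.73, and Il1b, the inflammatory cytokine, 2.52 and 2.75. Trem2 stood 1.85 (0.88 to 2.72) above Kupffer cells in control, on 13 UMIs, but 0.18 in cirrhosis on the log2 scale. The Gpnmb limit, exceeded by 1 control and 158 cirrhosis barcodes, held for the chosen cells and not for the Kupffer cells. Its part in the ratios over Kupffer cells was not tested. Lack of Clec4f, Vsig4 and Cd5l is part of the rule and is no finding.

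The sort was for GFP, and the reporter transcripts were read in the same cells. In LSECs eGFP stood at 1642 CPM in control and 1431 in cirrhosis, and 97.4% and 97.3% of the cells had a UMI, at median depths of 7342 and 10185 UMIs. In the 4 clusters eGFP stood at 142 and 74.1 CPM, and 61.1% and 36.8% of the cells had a UMI. At least 10 eGFP UMIs were found in 1 of 36 and 3 of 136 of these cells, against 2446 of 3714 and 2358 of 3366 LSECs. The unswitched reporter tdTomato stood at 154 and 68.0 CPM in the 4 clusters and at 6.56 and 2.53 CPM in LSECs. More tdTomato than eGFP UMIs were counted in 19 of the 36 control and 46 of the 136 cirrhosis cells of the 4 clusters, but in 1 LSEC of each library.

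The shares were also read with each cell thinned to 2000 UMIs. An eGFP UMI was then found in 22.9% of the control and 12.0% of the cirrhosis cells of the 4 clusters, against 92.3% and 88.8% of LSECs. A tdTomato UMI was found in 42.9% and 15.04% of the cells of the 4 clusters, against 0.75% and 0.271% of LSECs. Thinning left out 1 control and 3 cirrhosis cells of the 4 clusters. The endothelial-mixed cells of cirrhosis differed from the rest, with eGFP at 975 CPM (907 to 1047) and 24 of 31 cells at 10 or more UMIs. Kupffer cells, with eGFP at 164 and 143 CPM, were in the range of the 4 clusters in control and above it in cirrhosis. How far free eGFP transcripts in the droplets gave the low counts was not tested.

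**Figure D5:**
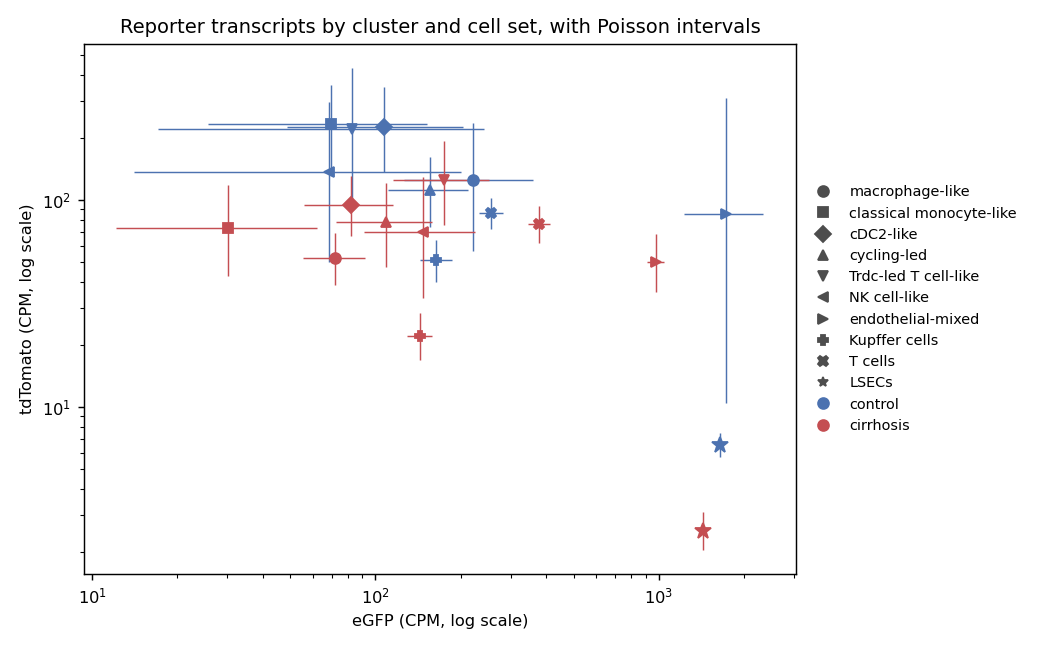
Levels in CPM of the reporter transcripts eGFP (horizontal log axis) and tdTomato (vertical log axis) in the clusters and other cell types (symbols) of each library (colours), with Poisson intervals. LSECs have eGFP at 1642 and 1431 CPM with tdTomato at 6.56 and 2.53 CPM, and the macrophage-like cells have eGFP at 221 and 72.1 CPM with tdTomato at 124 and 52.4 CPM.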

How the data were processed

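Single-cell RNA-seq of GFP-sorted liver cells was read from the UMI count tables the authors deposited, 1 library per group, each a raw count per gene and barcode with no normalization. The submitters' processing notes name Cell Ranger and the build mm10. Its version, annotation and counting settings were not stated in the sources used here. Genes with near-identical copies (Ly6c2 and Ly6c1, Lyz2 and Lyz1) may therefore share reads.

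The chosen cells and the gene lists were chosen with earlier results of these data known. The 278 cells were clustered with Leiden (scanpy 1.11.5, leidenalg 0.10.2, Python 3.11.15) at resolution 0.5, on 20 principal components of 1500 variable genes, 15 neighbours and the log of counts per 10000. Doublets were marked with Scrublet at 0.8% per 1000 barcodes and kept. Counts were summed per library and divided by their total (CPM). Ratios carry exact conditional binomial intervals, levels exact Poisson intervals and shares Clopper-Pearson intervals, all at 95% (scipy 1.17.1, numpy 2.4.6). The interval code was tested on simulated data. Genes at a mean of 50 CPM entered; a count of 0 was set to a floor of 3 counts. Named genes were the 4 largest ratios in size of each main list, the 2 largest of each other list, and, among genes averaging 100 CPM or more, the 12 highest and the 12 lowest. Other genes, named within clusters or beside other cell types, were markers on the lists or were chosen after their values were seen. With 1 library per group no test was run. Total depth was 45767322 and 77339928 UMIs. Alternatives covered the selection limits, depth, doublets, weighting, scaling, the CPM minimum, clustering and thinning; 5 sets of cells were added after seeing the data. Positions are from GENCODE M21 and promoters from RefSeq.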

Additional observations from a re-analysis of the deposited data

How the results depend on the processing

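No paired analysis was possible because each group has 1 library. A comparison within clusters of 25 or more cells in both libraries was planned and gave no value, since no cluster reached that size. With 47 control cells, single cells decide low genes. In each list below, shares are in percent and gene values are log2 ratios of cirrhosis over control. The causes of these changes were not tested beyond what each alternative itself leaves out.

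At 4 UMIs of the selecting genes there were 73 control members, and all members were clustered anew, into 9 clusters. Members were 1.41 of control and 3.67 of cirrhosis barcodes. Myeloid clusters of that setting held 54.8 of control members, lymphocyte clusters 42.5 of control and 24.9 of cirrhosis members, and 109 genes were lower. At 10 UMIs members were 0.658 and 2.32, lymphocyte clusters held 8.82 and 7.30, myeloid clusters 73.0 of cirrhosis, tdTomato was in 91.2 of control cells, and Gzma was 0.17. At 0.06% of UMIs, 3.51 of cirrhosis barcodes were members, with 59.65 of control in myeloid and 38.6 and 26.4 in lymphocyte clusters. With 0 Kupffer UMIs the cirrhosis values were 2.15 members, 69.7 myeloid and 7.88 mixed, with F13a1 at 0.11 and Ly6c2 at 0.59. Without cells over 0.5% of other markers they were 2.57, 67.5 and 16.2, with Ccl5 at 0.36 and Gzma at 0.43. Stricter depth limits gave 3.45 and no Gpnmb limit 3.89 of cirrhosis barcodes, the latter with 114 genes lower. Leaving out doublets gave 15.8 mixed, and resolution 0.3 gave 67.5 myeloid and 13.4 mixed in cirrhosis.

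Cells weighted equally gave 88 genes higher and 100 lower, a 20 CPM minimum 396 and 154, and a 100 CPM minimum 73 and 30. The 4 clusters alone gave 120 lower, eGFP in 36.8 of cirrhosis cells, chemokines at 0.34, Pecam1 -1.18, C3 -0.25 and Rbp4 -0.10. Weighted equally they gave 35 higher and 111 lower, chemokines 0.0070, Pecam1 -1.10, Apoa1 -0.074, Rbp4 -0.044 and Pclaf 0.30. Without the mixed clusters eGFP was in 37.4, chemokines 0.245, Pecam1 -0.62 and C3 -0.25. The macrophage-like, classical monocyte-like and cDC2-like clusters alone gave 73 higher and 177 lower, Ccl5 2.19, Pecam1 -0.77, Batf3 0.066, Irf8 0.29, Id2 0.14, C3 -0.65, Pclaf 0.96 and Trbc2 1.51. Thinning to 2000 UMIs gave eGFP in 23.9 and 21.9 and tdTomato in 37.0 and 15.8 of control and cirrhosis cells. Sets by cluster and the leaving out of shared barcodes were chosen after seeing the data. Of the remaining values, 270 list medians and 988 gene ratios stayed within the counting interval of the reported value, and 66 list medians and 277 gene ratios moved beyond it. Igfbp5 gave only a bound, and no value, where the mixed clusters were absent.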
